A study of Mus musculus with 16 samples.

Results

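Among hepatocyte regulators, 9 transcription factor genes were followed in whole liver of mice with and without the activating receptor NKG2D, on a normal or a disease-inducing diet. They were chosen by name from the 25719 genes of the table, by a rule that used no measured value but that was written with earlier results of these data known. The genes were the identity factors Hnf4a, Foxa2 and Onecut1, the shared partner Rxra, the chemical sensors Nr1i2 (also called PXR), Nr1i3 (CAR) and Ahr, and the lipid- and clock-linked receptors Pparg and Rora. All 9 had a mean normalized count of at least 10 and were tested in every comparison.

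Livers came from 16 mice in 4 groups. WT mice, labelled strain C57BL6J, were on a normal chow diet (NCD, n = 4) or on the steatosis-steatohepatitis diet (SSD, n = 5), which is rich in fat, fructose and cholesterol. Klrk1-/- mice, whose strain label reads NKG2D and which lack the gene encoding that receptor, were on NCD (n = 4) or SSD (n = 3). SSD was fed for 3 weeks before the livers were taken. No group was restricted to a cell type: the RNA was from whole liver isolates, and the deletion carries no cell-type promoter. The sources used here do not say whether WT and Klrk1-/- mice were littermates or whether mice of a group shared a cage, so the p-values measure the spread between these mice only.

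Depth was 19892025 to 28936707 reads on genes per mouse, and the values are normalized counts, which are reads divided by a single factor per mouse. Klrk1 itself was at 23.2 ± 3.85 normalized counts (SD, n = 4) in NCD-fed WT mice and 4.30 ± 3.33 (n = 4) in NCD-fed Klrk1-/- mice. On SSD it was at 46.1 ± 17.4 (n = 5) in WT and 2.29 ± 1.76 (n = 3) in Klrk1-/- mice. SSD-fed WT mouse 1 stood apart from its group: its mean correlation with the other mice of the group was 0.968, against 0.979 to 0.990 for every other mouse in the study with its own group. That mouse had the highest summed levels of macrophage markers (16880), stellate cell markers (32944) and cell cycle genes (2920), and results that rest on it are given with and without it. The summed hepatocyte markers were 2722100 to 3081400 in NCD-fed WT, 1800700 to 2179500 in SSD-fed WT, 2578800 to 3312800 in NCD-fed Klrk1-/- and 2257900 to 2437200 in SSD-fed Klrk1-/- mice. Of 10 endothelial markers, 8 rose with SSD in WT and 2 in Klrk1-/- mice, and 3 were higher in Klrk1-/- than in WT mice on NCD (limma, adjusted p under 0.05), while scaling every mouse to the same total gave 10, 7 and 1. Of 11 stellate markers 6 rose in WT and 7 in Klrk1-/- mice, and all 11 in both with equal totals. Of 10 cell cycle genes 10 rose in WT, also with equal totals, and their median log2 difference in Klrk1-/- mice was -0.24. Shares of all genes that passed were 34.9% for diet in WT, 29.4% for diet in Klrk1-/- mice and 13.1% for genotype on NCD. Under equal totals 7035 of 13091, 5634 of 12904 and 1365 of 12845 genes passed in the same order, in either direction. Of the T and NK cell markers tested, 1 rose and 1 fell among 6 in WT and 1 fell among 7 in Klrk1-/- mice with SSD. With equal totals 3 rose and 1 fell in WT, and without SSD-fed WT mouse 1 the rise was lost. Cholangiocyte markers had 1 of 6 rising with SSD in Klrk1-/- mice and 1 of 6 lower in Klrk1-/- mice on NCD, and 1 of 5 B cell markers was higher in Klrk1-/- mice on NCD. Summed neutrophil markers were 77.5 to 189 in NCD-fed WT, 105 to 277 in SSD-fed WT, 85 to 157 in NCD-fed Klrk1-/- and 95.6 to 151 in SSD-fed Klrk1-/- mice. The part of these cells in the results was not tested. In bulk tissue, fewer cells of a type and less RNA per cell cannot be told apart.

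Hepatocytes keep their identity through a network of factors that bind each other's genes. HNF4A, a nuclear receptor, FOXA2, a forkhead protein that opens chromatin, and ONECUT1 (HNF6) occupy many of the same liver enhancers and keep genes for plasma proteins, gluconeogenesis and bile acid synthesis on. RXRA is the obligate dimer partner of PXR, CAR and the PPARs. PXR and CAR bind foreign chemicals and bile acids and induce drug-metabolizing enzymes and transporters, and AHR, a PAS-domain protein rather than a nuclear receptor, does so for aromatic compounds. PPARG is the master regulator of fat cells, is low in the healthy liver and rises in fatty liver, while RORA activates clock and lipid genes.

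On the GRCm39 build, Hnf4a lies on the plus strand at chr2:163348728-163414830, Foxa2 on the minus strand at chr2:147884797-147888889 and Rxra on the plus strand at chr2:27566452-27652969. Onecut1 (chr9:74769203-74799063) and Rora (chr9:68561068-69295528) are both on the plus strand of chromosome 9. Nr1i2 (chr16:38068685-38115186) and Ahr (chr12:35547973-35585037) are on the minus strand, and Nr1i3 (chr1:171041539-171048270) and Pparg (chr6:115337912-115467360) are on the plus strand. A count covers the exons of a whole gene, so it does not separate promoters or isoforms, of which Pparg has 30 annotated transcript starts and Hnf4a 4. Nr1i3 overlaps Tomm40l on the opposite strand (mean 370.2 normalized counts over all mice), and since the sources used here do not say whether reads were counted by strand, some reads could belong to either gene.

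The 250 bases upstream of the main annotated start of each gene were read from the GRCm39 genome, and 4 windows are shown: the 3 that shared an E-box, which include those of Onecut1 and Nr1i3 whose levels the comparisons turn on, and that of Hnf4a, the centre of the network. Capitals mark CACGTG, the E-box that clock and MYC-family proteins bind, in the first 3 windows, and ATTAAC, the reverse complement of GTTAAT (an HNF1 site core), in the last. Each window is written 5′ to 3′ on the strand of its gene: Onecut1 (chr9:74768868-74769117, plus strand), Nr1i3 (chr1:171041289-171041538, plus strand), Ahr (chr12:35585058-35585307, minus strand) and Hnf4a (chr2:163388819-163389068, plus strand).

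Onecut1: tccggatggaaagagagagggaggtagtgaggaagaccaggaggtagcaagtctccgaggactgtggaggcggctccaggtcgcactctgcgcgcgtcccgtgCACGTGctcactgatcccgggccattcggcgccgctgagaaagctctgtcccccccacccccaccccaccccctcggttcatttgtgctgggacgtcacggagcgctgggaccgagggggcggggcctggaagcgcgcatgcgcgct

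Nr1i3: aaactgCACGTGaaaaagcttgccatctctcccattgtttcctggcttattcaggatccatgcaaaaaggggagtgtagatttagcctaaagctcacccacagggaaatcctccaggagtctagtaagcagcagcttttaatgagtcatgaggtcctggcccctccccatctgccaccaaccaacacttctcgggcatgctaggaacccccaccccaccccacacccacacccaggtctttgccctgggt

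Ahr: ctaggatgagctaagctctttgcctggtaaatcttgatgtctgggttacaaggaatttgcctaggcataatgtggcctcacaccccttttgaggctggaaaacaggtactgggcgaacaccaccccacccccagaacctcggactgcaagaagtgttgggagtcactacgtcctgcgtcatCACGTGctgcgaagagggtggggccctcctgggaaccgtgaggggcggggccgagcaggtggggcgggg

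Hnf4a: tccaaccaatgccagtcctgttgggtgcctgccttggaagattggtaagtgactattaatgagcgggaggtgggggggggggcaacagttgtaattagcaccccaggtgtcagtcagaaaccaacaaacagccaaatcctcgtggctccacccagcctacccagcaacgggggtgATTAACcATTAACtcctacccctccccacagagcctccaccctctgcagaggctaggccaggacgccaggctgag

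CACGTG began 147 bases before the start of Onecut1, 244 before Nr1i3 and 69 before Ahr, and on both strands it was present in 6.3% of 21603 windows of the same length. GTTAAT was present in the windows of Hnf4a, Nr1i2 and Rora, against 6.24% of all windows, and Hnf4a held it 2 times. The AHR core GCGTG was found in the window of Rxra only among the 9, against 31.4% of all windows. None of the 9 windows held AGGTCA (a nuclear receptor half-site, 13.1% of all windows), TGTTTAC (FOXA, 2.74%), ATCGAT (ONECUT, 0.787%), TGACGTCA (CREB, 1.71%), TTATGTAA (a D-box, 0.838%) or CAAAGTCCA (HNF4, 0.375%). Such matches describe the letters of a window and are not binding sites. GC content was 67.6% in the Onecut1 window, 58.8% for Ahr, 57.2% for Hnf4a and 53.2% for Nr1i3, and the median of all windows was 53.2%.

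Per kilobase of gene, Hnf4a was the most abundant of the 9 factors in every group. In NCD-fed WT mice the means were 5682 normalized counts per kb for Hnf4a, 2709 for Rxra and 2414 for Nr1i3, and the ranges of Rxra and Nr1i3 overlapped. Nr1i2 followed at 715 per kb. Foxa2 (439.8), Rora (408) and Ahr (371) overlapped each other, and Onecut1 (209) and Pparg (105) were lowest. On SSD, WT mice had Nr1i3 at 4086 per kb and Rxra at 2539, both with ranges overlapping their neighbour in the order, while Pparg moved up to 248 and overlapped Ahr at 322. Onecut1 then became the lowest factor at 38.7 per kb. NCD-fed Klrk1-/- mice had Hnf4a at 5527, Nr1i3 at 3255 and Rxra at 2284 per kb, with Pparg last at 93.6. In SSD-fed Klrk1-/- mice the means of Hnf4a (5841) and Nr1i3 (5754) lay next to each other with overlapping ranges, and Onecut1 was last at 47.8.

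**Figure D1:**
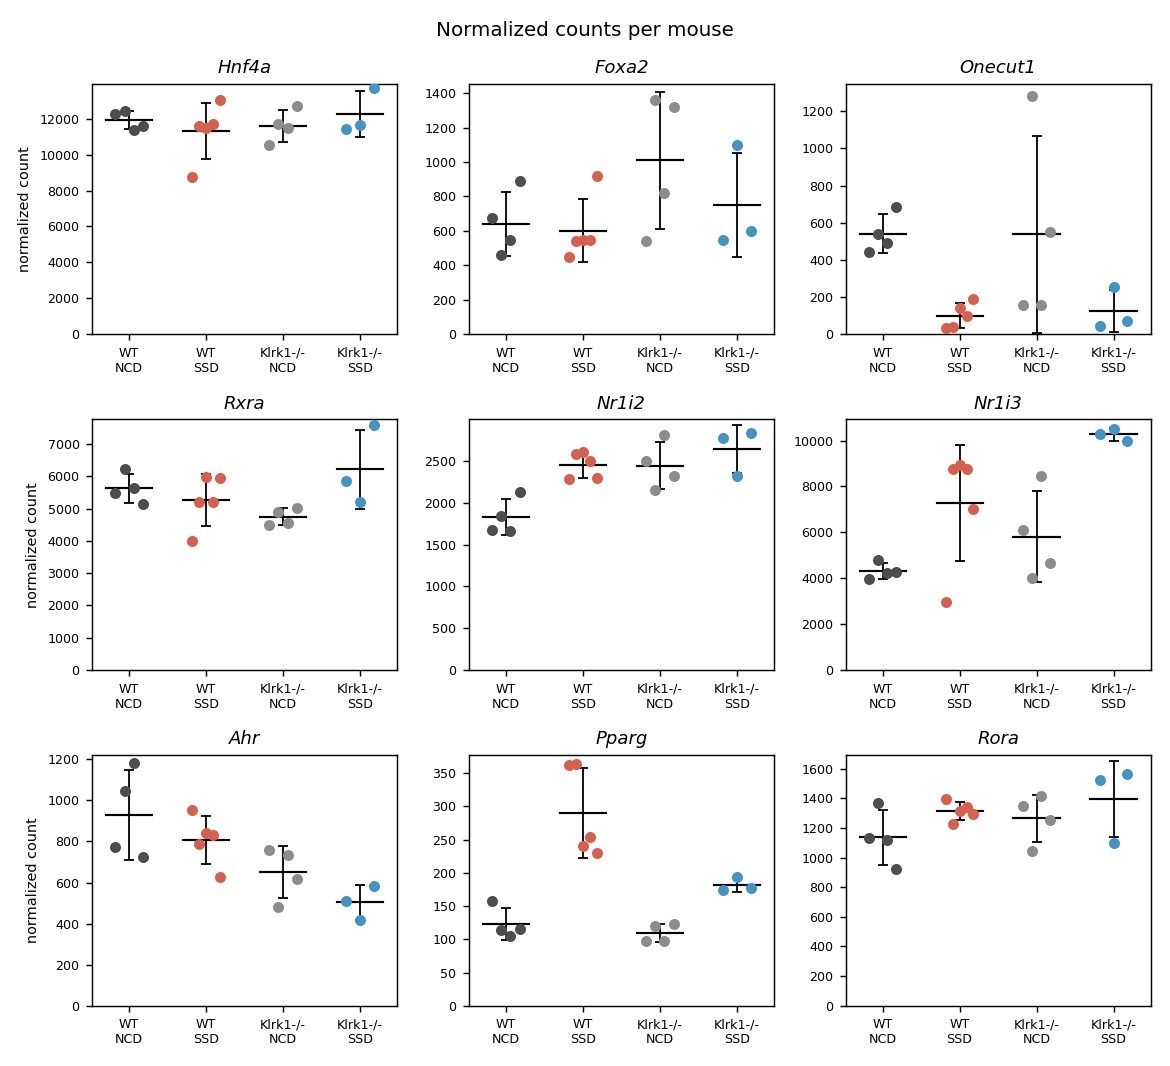
Normalized counts of the 9 factors (vertical axes, linear from 0, 1 panel per gene) in each mouse, with the 4 groups along the horizontal axis. Points are mice, long bars are group means and error bars are SD (n = 4, 5, 4 and 3 mice). All SSD-fed WT points of Onecut1 lie below the NCD-fed WT points, all SSD-fed points of Pparg lie above the NCD-fed points of their genotype, and 1 SSD-fed WT mouse is low in Hnf4a, Rxra and Nr1i3.

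SSD feeding of WT mice was followed by lower Onecut1 and higher Pparg and Nr1i2, while Hnf4a, Foxa2, Rxra, Nr1i3, Ahr and Rora did not pass the test. These 3 of 9 factors compare with 34.9% of the 13091 genes tested, so the share among the factors was near that of all genes. The same 3 factors had groups that did not overlap, as did 29% of genes. The test was limma's trend method on log2(normalized count + 1) with Benjamini-Hochberg adjustment over all genes tested, with a call at an adjusted p under 0.05, here and for every p below unless another tool is named.

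Onecut1, a cut-homeobox factor needed for bile duct and hepatocyte development, was at 444, 538, 490.1 and 686 normalized counts in the NCD-fed WT mice. In the SSD-fed WT mice it was at 31.2, 37.2, 143, 98.6 and 190.2. Every SSD-fed WT mouse was below every NCD-fed WT mouse, and the mean fell 5.39-fold, from 539 ± 105 (SD, n = 4) to 100.0 ± 68.3 (n = 5). Its log2 fold change was -2.73 (SE 0.46, adjusted p = 0.000962 by limma) and stayed between -3.04 and -2.40 when any 1 mouse was left out. Klrk1-/- mice were more scattered: Onecut1 was at 155, 1285, 159 and 549.8 on NCD and at 45.4, 252 and 72.9 on SSD. The 2 diets overlapped there because 1 SSD-fed mouse, at 252, was above the lower pair of NCD-fed mice. The means were 537 ± 532 (n = 4) and 123 ± 112 (n = 3), a log2 difference of -1.94 (SE 0.71) that did not pass (adjusted p = 0.0586). It passed when NCD-fed Klrk1-/- mouse 1 (adjusted p = 0.0306) or 3 (0.0293) or SSD-fed Klrk1-/- mouse 2 (0.0172) was left out. With the replicate number as a block the difference was -1.74 and passed (adjusted p = 0.000753 by limma). That fit also left out NCD-fed Klrk1-/- mouse 4, whose number no SSD-fed Klrk1-/- mouse has. A replicate number names different mice in different groups.

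Pparg was low in all mice on NCD and higher on SSD in both genotypes. Its values were 158, 114, 106 and 115 normalized counts in NCD-fed WT and 363, 363, 239.8, 254 and 230.2 in SSD-fed WT mice. In Klrk1-/- mice they were 97.7, 119, 97.0 and 123 on NCD and 175, 194 and 177 on SSD. The lowest SSD-fed mouse of each genotype lay above the highest NCD-fed mouse of that genotype. The WT mean rose 2.36-fold, from 123 ± 23.7 (n = 4) to 290.0 ± 67.1 (n = 5), a log2 fold change of 1.22 (SE 0.18, adjusted p = 0.000335 by limma). Klrk1-/- mice went from 109 ± 13.9 (n = 4) to 182 ± 10.8 (n = 3), a log2 fold change of 0.74 (SE 0.13, adjusted p = 0.00178). Between the SSD-fed groups all 5 WT mice were above all 3 Klrk1-/- mice, by 1.59-fold in the means, but the difference did not pass (log2 -0.64, SE 0.17, adjusted p = 0.0738 by limma). It passed with DESeq2 on the recovered reads (adjusted p = 0.0123) and in 1 model of all 4 groups (0.0308). Values behind Pparg were 78 to 546 reads per mouse.

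Pparg is also expressed by fat cells and macrophages. The adipocyte markers Adipoq, Lep, Plin1 and Retn were at or under the floor of 3 reads in all 16 mice. The other 4 of the 8 were detected, and with SSD in WT Cfd (3.44, adjusted p = 0.0351 by limma, 9.30 to 1255 normalized counts in SSD-fed mice), Aqp7 (3.53, 0.00236) and Fabp4 (1.07, 0.00116) rose and Lipe fell (-0.44, 0.0367). Aqp7 also rose in Klrk1-/- mice (3.34, adjusted p = 0.00127). Summed over 8 adipocyte markers, the levels were 446 to 547 in NCD-fed WT, 630 to 1839 in SSD-fed WT, 545 to 677 in NCD-fed Klrk1-/- and 582 to 611 in SSD-fed Klrk1-/- mice. The summed level of 14 macrophage markers was 4740 to 4992, 6951 to 16880, 4074 to 4935 and 5054 to 6483 in the same order, and 10 of these 14 rose with SSD in WT and 5 in Klrk1-/- mice, against 34.9% and 29.4% of all genes passing. With equal totals 14 and 10 rose, and without SSD-fed WT mouse 1 there were 7 in WT. All genes passing with equal totals were 7035 of 13091 in WT and 5634 of 12904 in Klrk1-/- mice. Without SSD-fed WT mouse 1, which had the highest macrophage sum, the Pparg change in WT was 1.13 on the log2 scale (adjusted p = 0.000323 by limma). The part of these cells in the Pparg values was not tested further.

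Nr1i3, which encodes CAR, was higher on SSD in Klrk1-/- mice, and in WT mice it was higher in 4 of 5. NCD-fed WT mice had 3965, 4772, 4228 and 4257 normalized counts and SSD-fed WT mice had 2977, 8748, 8926, 8759 and 7035. SSD-fed WT mouse 1 was thus below every NCD-fed WT mouse, and the other 4 were above all of them. With all 5 mice the WT log2 difference was 0.66 (SE 0.27) and did not pass (adjusted p = 0.0795 by limma), while without that mouse it was 0.95 (adjusted p = 2.02e-05). With all mice, edgeR (adjusted p = 0.0385) and DESeq2 (0.00742) on the recovered reads also passed it. In Klrk1-/- mice, Nr1i3 was at 6084, 4004, 8465 and 4672 on NCD and at 10303, 10519 and 9976 on SSD, with no overlap. Its mean rose 1.77-fold, from 5806 ± 1973 (n = 4) to 10266 ± 273 (n = 3), a log2 fold change of 0.88 (SE 0.20, adjusted p = 0.00623 by limma). SSD-fed Klrk1-/- mice were also above all SSD-fed WT mice, 1.41-fold in the means, but the log2 difference of 0.60 (SE 0.32) did not pass (adjusted p = 0.290), and it was 0.30 (adjusted p = 0.0971) without SSD-fed WT mouse 1.

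Nr1i2, which encodes PXR, was at 1674, 1842, 1664 and 2125 normalized counts in NCD-fed WT mice. SSD-fed WT mice had 2282, 2591, 2606, 2507 and 2298, all above the NCD-fed ones. The mean rose 1.35-fold, from 1826 ± 215 (n = 4) to 2457 ± 157 (n = 5), a log2 fold change of 0.43 (SE 0.09, adjusted p = 0.00413 by limma). NCD-fed Klrk1-/- mice were already at 2502, 2153, 2814 and 2321, above every NCD-fed WT mouse. This difference of 0.42 on the log2 scale (SE 0.11) passed (adjusted p = 0.0250), and leaving out single mice could remove it, as the genotype comparison gives. On SSD, Klrk1-/- mice were at 2782, 2318 and 2840.5, and neither the diet difference in Klrk1-/- (0.11, SE 0.11, adjusted p = 0.450) nor the genotype difference on SSD (0.10, SE 0.09, adjusted p = 0.530) passed. With equal totals the Klrk1-/- diet difference was 0.37 and passed (adjusted p = 0.0144).

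In Klrk1-/- mice, SSD was followed by higher Nr1i3, Pparg and Rxra, and no other factor passed. That is 3 of 9, against 29.4% of the 12904 genes tested, and groups that did not overlap were found for the same 3 factors and for 37.6% of genes. Rxra was at 4489.6, 4904, 4547 and 5019.8 normalized counts on NCD and at 5848, 5199 and 7579.5 on SSD in these mice. Its mean rose 1.31-fold, from 4740 ± 262 (n = 4) to 6209 ± 1231 (n = 3), a log2 fold change of 0.37 (SE 0.12, adjusted p = 0.0307 by limma). The call was lost when any of 5 mice was left out, NCD-fed Klrk1-/- mouse 1, 2 or 3 or SSD-fed mouse 1 or 3, with an adjusted p of up to 0.116, and in 1 model of all 4 groups (0.0518). In WT mice Rxra was at 5478, 6223, 5634 and 5148 on NCD and at 4006, 5199, 5969, 5209 and 5958 on SSD, overlapping, with a log2 difference of -0.10 (SE 0.12, adjusted p = 0.526).

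Hnf4a, the factor at the centre of the hepatocyte network, passed no comparison. It ranged from 11395 to 12457 normalized counts in NCD-fed WT mice, from 8758 to 13070 in SSD-fed WT mice, from 10522 to 12725 in NCD-fed Klrk1-/- mice and from 11409 to 13715 in SSD-fed Klrk1-/- mice. The lowest value of all 16 mice was that of SSD-fed WT mouse 1. The log2 difference between diets was -0.09 (SE 0.11, adjusted p = 0.587) in WT and 0.08 (SE 0.10, adjusted p = 0.578) in Klrk1-/- mice, and without SSD-fed WT mouse 1 the WT value was 0.0035. The sign in WT depends on the scaling: when every mouse was scaled to the same total, Hnf4a was higher on SSD in WT (0.26, adjusted p = 0.0416) and in Klrk1-/- mice (0.34, adjusted p = 0.0145). That scaling moves the median of all genes tested to 0.34 in WT and 0.25 in Klrk1-/- mice, and the Hnf4a values were below that median in WT and above it in Klrk1-/- mice.

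Foxa2 was at 673, 462, 545 and 888 normalized counts in NCD-fed WT mice and at 449, 542, 546, 547 and 920.1 in SSD-fed WT mice. NCD-fed Klrk1-/- mice had 541, 1358, 818 and 1319, and SSD-fed Klrk1-/- mice had 549.5, 1096 and 602. No comparison passed and the groups overlapped in all 4, including NCD-fed Klrk1-/- against NCD-fed WT mice, where the means differed 1.57-fold (log2 0.60, SE 0.27, adjusted p = 0.146 by limma). That difference passed without NCD-fed Klrk1-/- mouse 1 (adjusted p = 0.0304).

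Ahr was at 773, 1045, 1181 and 723 normalized counts in NCD-fed WT, 952, 787, 839, 831 and 627 in SSD-fed WT, 761, 483, 734 and 619 in NCD-fed Klrk1-/- and 509.9, 415 and 584 in SSD-fed Klrk1-/- mice. All 3 SSD-fed Klrk1-/- mice were below all 5 SSD-fed WT mice, and the means were 503 ± 84.5 (n = 3) and 807 ± 118 (n = 5). The log2 difference of -0.68 (SE 0.14) passed (adjusted p = 0.0384 by limma), although leaving out any 1 of SSD-fed WT mice 2, 3 and 4 or any SSD-fed Klrk1-/- mouse raised the adjusted p to between 0.0707 and 0.148. Without SSD-fed WT mouse 1 it was -0.62 (adjusted p = 0.0255). On NCD the genotype difference was -0.51 (SE 0.17, adjusted p = 0.0660) and did not pass, while it passed with DESeq2 (adjusted p = 0.0269) and without NCD-fed WT mouse 5 (0.0298). Diet did not pass for Ahr in WT (-0.19, SE 0.16, adjusted p = 0.376) or in Klrk1-/- mice (-0.36, SE 0.16, adjusted p = 0.112), where it passed without NCD-fed Klrk1-/- mouse 2 (-0.49, 0.0242).

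Rora, which binds half-sites as a monomer, ranged from 924 to 1369 normalized counts in NCD-fed WT, 1229 to 1398 in SSD-fed WT, 1044 to 1413 in NCD-fed Klrk1-/- and 1099 to 1562 in SSD-fed Klrk1-/- mice. Its log2 difference with SSD was 0.22 (SE 0.10, adjusted p = 0.116) in WT and 0.13 (SE 0.14, adjusted p = 0.488) in Klrk1-/- mice. With equal totals it was higher on SSD and passed in WT (0.57, adjusted p = 0.00228) and in Klrk1-/- mice (0.39, 0.0337), and on the deposited scale it passed in WT without NCD-fed WT mouse 2 (0.32, 0.0261). The groups overlapped in every comparison.

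**Figure D2:**
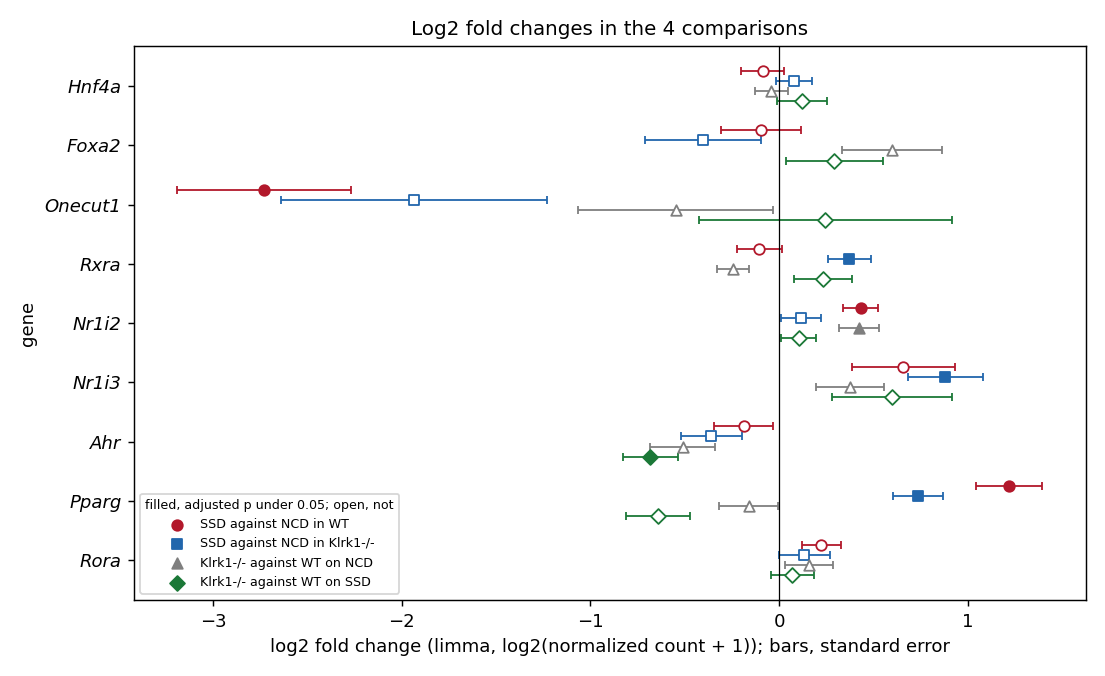
Log2 fold changes of the 9 factors (vertical axis) from limma on log2(normalized count + 1), horizontal axis, in the 4 comparisons between groups; bars are standard errors, filled symbols passed an adjusted p under 0.05 and open ones did not. The filled symbols are Onecut1 (-2.73), Nr1i2 (0.43) and Pparg (1.22) for diet in WT, Rxra (0.37), Nr1i3 (0.88) and Pparg (0.74) for diet in Klrk1-/-, Nr1i2 (0.42) for genotype on NCD and Ahr (-0.68) for genotype on SSD.

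Between genotypes, 1 of the 9 factors passed on NCD, Nr1i2, against 13.1% of 12845 genes. Its call was lost when NCD-fed WT mouse 1, 2 or 3 or NCD-fed Klrk1-/- mouse 1 or 3 was left out, with adjusted p from 0.0521 to 0.0755 by limma. Rxra was lower in every NCD-fed Klrk1-/- mouse than in every NCD-fed WT mouse, yet its log2 difference of -0.24 (SE 0.09) did not pass (adjusted p = 0.0775), and passed with DESeq2 (0.0361) and without NCD-fed WT mouse 5 (0.0499). Groups did not overlap for these 2 factors, and for 19.3% of genes. On SSD also 1 factor passed, Ahr, against 2.9% of 13116 genes, and the groups of Ahr, Pparg and Nr1i3 did not overlap, against 17.9% of genes. Cell cycle genes differed between the same mice: on SSD, 5 of 10 were lower in Klrk1-/- than in WT livers, with sums of 341 to 448 and 632 to 2920. Macrophage markers did so too, with 2 of 14 lower, or 7 of 14 without SSD-fed WT mouse 1, and sums of 5054 to 6483 against 6951 to 16880. The part of these cells in the Ahr result was not tested.

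An interaction term over all 16 mice asked whether WT and Klrk1-/- mice responded unequally to SSD. None of the 9 factors passed with limma, against 0.88% of 13068 genes, and none passed with edgeR (0) or DESeq2 (0) on the recovered reads. At an unadjusted p under 0.05 there were 2, Rxra (difference of log2 changes 0.48, SE 0.18, adjusted p = 0.192 by limma) and Nr1i2 (-0.32, SE 0.14, adjusted p = 0.270), against 17.3% of genes. For Pparg the difference was -0.48 (SE 0.24, adjusted p = 0.304), and for Onecut1 it was 0.79 (SE 0.95, adjusted p = 0.696). The calls that were made in 1 genotype and missed in the other are therefore not shown to differ between genotypes.

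Mice of the same group differed from each other in a shared way in Foxa2, Onecut1, Ahr and Rora. In each of the 4 groups, 1 mouse had at once the highest Foxa2, the highest Onecut1 and the lowest Ahr: NCD-fed WT mouse 5, SSD-fed WT mouse 5 and mouse 2 of both Klrk1-/- groups. Rora was lowest in that mouse in 3 of the 4 groups and was lowest in mouse 2 of the SSD-fed WT group. Deviations of log2(normalized count + 1) from the group mean were correlated over 16 mice for all 36 pairs of factors, with a two-sided permutation within groups (100000 draws) and adjustment over the 36 pairs. Foxa2 and Onecut1 had a Pearson r of 0.80 (permutation p adjusted = 0.0151) and a Spearman rho of 0.80 (0.0187), and Foxa2 and Ahr had -0.85 (permutation p adjusted = 0.0151) and -0.83 (0.0187). For Foxa2 and Rora the values were -0.76 (permutation p adjusted = 0.0215) and -0.81 (0.0272), and for Hnf4a and Rxra 0.85 (permutation p adjusted = 0.0215) and 0.81 (0.0278). Without the 2 mice farthest from the median of the first-named factor of the pair, r was 0.72, -0.80, -0.76 and 0.73 in the same order. Mice far out in the second factor could stay in. The 4 pairs passed by both measures, and 4 further pairs, Onecut1 with Ahr (-0.68) and with Rora (-0.62), Ahr with Rora (0.74) and Nr1i2 with Nr1i3 (0.54), passed by Pearson alone. Without the 2 mice farthest in the first-named factor r was -0.53, -0.36, 0.73 and 0.54 for these. All values of a mouse share 1 scaling factor and 1 sampling of the liver, and the time of day at which mice were killed is not given in the sources used here.

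**Figure D3:**
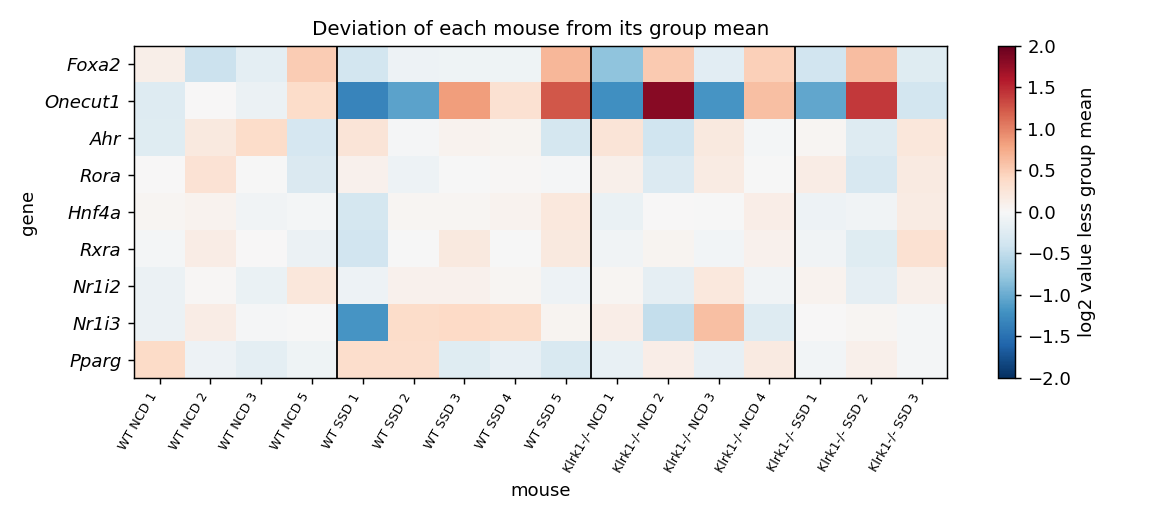
Deviation of log2(normalized count + 1) from the group mean, as colour from blue (below) to red (above), for the 9 factors (rows) in the 16 mice (columns, groups divided by lines). The red cells of Foxa2 and Onecut1 in NCD-fed WT mouse 5, SSD-fed WT mouse 5 and mouse 2 of both Klrk1-/- groups stand over blue cells of Ahr, and SSD-fed WT mouse 1 is blue in Nr1i3.

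Genes with the most similar pattern to each factor were ranked by Pearson r of the same deviations over 16 mice, among 9753 genes with a mean of at least 100 normalized counts. The nearest to Foxa2 were Arid5b (0.94), Cish (0.91) and Gbp11 (0.90). For Onecut1 they were Ces3b (0.90), Plcxd2 (0.88) and Alas1 (0.87), Alas1 being the rate-limiting enzyme of haem synthesis. Ahr was nearest to Tnfrsf1b (0.90), Prox1 (0.86) and Frmd4b (0.85). Hnf4a lay nearest to Chp1 (0.92), Hacl1 (0.92) and Gm49387 (0.90), and Rxra to Slc22a23 (0.91), Cbs (0.90) and Kif1c (0.90). Among the nearest to Nr1i2 were Asap3 (0.94) and Notch1 (0.84). The nearest were, for Nr1i3 Polg2 (0.92), Iqsec2 (0.92) and Ndrg3 (0.91), for Pparg Cdk7 (0.92), Ankmy2 (0.91) and Khdrbs1 (0.87), and for Rora Fem1c (0.90), Rnf125 (0.90) and Kremen1 (0.90). These are the highest of 9753 values each and are descriptions.

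The other identity factors fell more often than they rose with SSD in WT mice on the deposited scale. Of 20 tested, 9 fell and 1 rose in WT, with a median log2 change of -0.32 against -0.0015 over all genes, of which 34.9% passed, and in Klrk1-/- mice 3 rose, against 29.4% of all genes passing, and the median was 0.03. When every mouse was scaled to the same total, 2 fell and 5 rose in WT and 9 rose in Klrk1-/- mice. That scaling moves all genes alike, so such counts depend on it. It passed 7035 of 13091 genes in WT and 5634 of 12904 in Klrk1-/- mice. The WT median of the list was then 0.02 against 0.34 over all genes. Because list and all genes move nearly alike, the gap between the 2 medians is not a second test. In Klrk1-/- mice the medians were 0.29 and 0.25. The nuclear receptor corepressor Nr0b2 (SHP) rose (1.19, adjusted p = 0.000492 by limma), and Prox1 (-0.71, adjusted p = 0.0128), Cebpa (-0.64, 0.00275) and Nr5a2 (-0.57, 0.000961), a bile acid gene regulator, fell in WT mice. Nr0b2 was at 651, 1508, 2515 and 1744 normalized counts on average in NCD-fed WT, SSD-fed WT, NCD-fed Klrk1-/- and SSD-fed Klrk1-/- mice, and its diet effect differed between genotypes (interaction -1.78, adjusted p = 0.0158). The same was found for Nr5a2 (interaction 0.73, adjusted p = 0.0281), though with equal totals it no longer passed (0.65, adjusted p = 0.0592). On NCD, Nr0b2 was higher (1.95, adjusted p = 7.64e-06) and Prox1 (-0.70, 0.0435) and Zhx2 (-0.68, 0.00224) lower in Klrk1-/- than in WT mice, with 1 of 20 higher and 5 lower, against 13.1% of all genes passing. Tbx3 rose with SSD in Klrk1-/- mice (0.93, adjusted p = 0.0188 by limma). Between genotypes on SSD, 1 of 20 was higher in Klrk1-/- mice, Tbx3 (1.34, adjusted p = 0.0315). Another 1 was lower, Cebpb (-0.83, adjusted p = 0.0213), against 2.9% of all genes passing.

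Among the other nuclear receptors, 30 of 38 listed were tested in WT mice, and 5 rose and 7 fell with SSD, with a median of -0.07. In Klrk1-/- mice 4 of 29 rose and 6 fell, and of all genes 34.9% passed in WT and 29.4% in Klrk1-/- mice. With every mouse scaled to the same total the counts were 13 and 1 in WT and 11 and 4 in Klrk1-/- mice. That scaling passed 7035 of 13091 genes in WT and 5634 of 12904 in Klrk1-/- mice. Ppard fell in both genotypes (-0.93, adjusted p = 0.0203, and -1.5, adjusted p = 0.000233, by limma), and Ppara, the fatty acid oxidation receptor that also pairs with RXRA, rose in WT (0.71, adjusted p = 0.00665) and in Klrk1-/- mice (0.52, 0.0156). Esrrb, at 10.5 to 24.2 normalized counts in the group means, rose in both (1.03 and 1.06, adjusted p = 0.0229 and 0.0179). Of 14 coregulators, 1 rose with SSD in WT mice, Nrip1 (0.41, adjusted p = 0.0112), against 9 with equal totals. Ppargc1a, a coactivator of PPARs and HNF4A in fasting, was higher in NCD-fed Klrk1-/- than in NCD-fed WT mice (1.28, adjusted p = 0.00121), at 310.5 against 128 normalized counts.

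Genes known to depend on HNF4A, FOXA2 or ONECUT1 fell more often than they rose with SSD on the deposited scale. Of 35 tested, 16 fell and 4 rose in WT (median -0.36) and 14 fell and 6 rose in Klrk1-/- mice (median -0.19). Scaled to equal totals, 9 fell and 6 rose in WT, and 6 fell and 11 rose in Klrk1-/- mice, so the counts depend on a scaling that moves all genes alike. Under it 7035 of 13091 genes passed in WT and 5634 of 12904 in Klrk1-/- mice. The list medians were then -0.01 in WT and 0.07 in Klrk1-/- mice, against 0.34 and 0.25 over all genes. In both genotypes the list median lay below that of all genes. Equal totals could hardly change that gap, because list and all genes move nearly alike. Over all genes 34.9% passed in WT and 29.4% in Klrk1-/- mice. Tat, a tyrosine-degrading enzyme, fell from a mean of 65911 to 16473 normalized counts in WT (-2.05, adjusted p = 4.03e-05 by limma) and from 39002 to 8817 in Klrk1-/- mice (-2.15, adjusted p = 3.47e-05). Cyp7a1, the rate-limiting enzyme of bile acid synthesis, fell in WT (-1.02, adjusted p = 0.0416) and in Klrk1-/- mice (-0.95, 0.00414) and was lower in Klrk1-/- than in WT mice on NCD (-1.49, 0.0185) and on SSD (-1.42, 0.0114). Vldlr rose in both genotypes (2.58, adjusted p = 7.56e-05, and 1.54, adjusted p = 0.00494).

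Of 16 genes tested that are known as PPARG targets, 11 rose with SSD, 1 fell and 4 did not pass in WT, with a median of 1.21. In Klrk1-/- mice 8 rose, 1 fell and 7 did not pass, with a median of 0.50. Over all genes 34.9% and 29.4% passed. Equal-total scaling gave 11 rising in each genotype, with 7035 of 13091 genes passing in WT and 5634 of 12904 in Klrk1-/- mice. Cidec, a lipid droplet protein, was at a mean of 19.7 normalized counts in NCD-fed WT, 928 in SSD-fed WT, 26.6 in NCD-fed Klrk1-/- and 199.7 in SSD-fed Klrk1-/- mice. It rose in WT (5.49, adjusted p = 4.53e-07 by limma) and in Klrk1-/- mice (3.04, 0.000118), stayed below its WT level on SSD in Klrk1-/- mice (-2.12, 0.00833), and its diet effect differed between genotypes (interaction -2.45, adjusted p = 0.0485), a call that was lost without SSD-fed WT mouse 1 (-2.35, adjusted p = 0.0576). Plin4, another lipid droplet protein (3.24, adjusted p = 1.68e-06, and 2.72, 2.93e-06), and Cd36, a fatty acid transporter (2.48, 0.000124, and 1.09, 0.00123), also rose in WT and Klrk1-/- mice. Cidec was the only gene of the list that passed between genotypes on SSD, while 3 genes did so with equal totals and 5 without SSD-fed WT mouse 1, against 2.9% of all genes in the first of these. Among all genes the calls were 381, 464 and 717 in the same order. Many of these genes are also PPARA targets or macrophage genes.

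Targets of PXR rose more often than they fell with SSD, and CAR targets moved both ways. Of 16 PXR targets, 6 rose and 1 fell with SSD in WT and 7 rose and 2 fell in Klrk1-/- mice, and of 17 CAR targets 5 rose and 3 fell in WT and 6 rose and 2 fell in Klrk1-/- mice. Over all genes 34.9% passed in WT and 29.4% in Klrk1-/- mice. Under equal totals every PXR target that passed rose, 8 in WT and 11 in Klrk1-/- mice, and CAR targets rose in 5 and 11 and fell in 2 and 1. That scaling moves the median of all genes up. It passed 7035 of 13091 genes in WT and 5634 of 12904 in Klrk1-/- mice. Gsta1, a glutathione transferase, rose from 32.2 to 455 normalized counts in WT (3.77, adjusted p = 1.65e-07 by limma) and from 38.3 to 220.2 in Klrk1-/- mice (2.42, 5.13e-05). Por, which passes electrons to all microsomal cytochromes P450, rose in WT (0.95, adjusted p = 5.39e-05) and more in Klrk1-/- mice (1.70, 3.33e-08), with an interaction of 0.74 (adjusted p = 0.0156). Gadd45b rose in both genotypes by 2.94 (adjusted p = 4.7e-06 in WT and 0.000122 in Klrk1-/- mice), and Cyp2c54 fell in both (-1.61, 0.00161, and -0.75, 0.00612). Cyp2b10, the standard reporter of CAR activity, did not pass in WT (1.55, SE 0.79, adjusted p = 0.147) or Klrk1-/- mice (0.73, SE 0.57, 0.366). It was low and scattered, at 1.10 to 9.12 normalized counts in NCD-fed WT and 3.27 to 104 in SSD-fed WT mice. Klrk1-/- mice had 3.45 to 36.1 on NCD and 16.1 to 30.0 on SSD, so this gene says little here. The related gene Cyp2b9 was at 0 in every NCD-fed WT mouse and at 5.33 to 131 normalized counts in SSD-fed WT mice. In Klrk1-/- mice Cyp2b9 was at 0 to 18.7 on NCD (mean 5.59) and had a mean of 103 on SSD. Reads of the Cyp2b, Cyp2c, Cyp3a and Gstm families can be shared between near-identical copies, so their single values are uncertain.

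Of 10 AHR targets, 4 rose and 1 fell with SSD in WT and 5 rose and 1 fell in Klrk1-/- mice, against 34.9% and 29.4% of all genes passing, while equal totals gave 7 and 6 rising. Among all genes, equal totals passed 7035 of 13091 in WT and 5634 of 12904 in Klrk1-/- mice. Cyp1a1 rose in WT (1.5, adjusted p = 0.0168 by limma) and Klrk1-/- mice (0.74, 0.013), as did Nqo1 (1.22, 0.0008, and 1.36, 5.83e-05). Cyp1a2 fell in WT (-1.03, adjusted p = 0.000348) and Klrk1-/- mice (-0.53, 0.00687). Of the 5 AHR partners and chaperones tested, Hsp90aa1 was lower in Klrk1-/- than in WT mice on NCD (-1.31, adjusted p = 0.000455) and on SSD (-0.85, 0.00497), and Hsp90ab1 was lower on NCD (-0.83, 0.00256). Of 16 RORA targets, 5 rose and 4 fell in WT and 4 rose and 3 fell in Klrk1-/- mice, shares again beside 34.9% and 29.4% of all genes, and under equal totals 8 rose in each while 2 and 3 fell. Fgf21, a fasting hormone of the liver, went from a mean of 9.07 to 1589 normalized counts in WT (7.38, adjusted p = 5.55e-08) and from 27.0 to 1019 in Klrk1-/- mice (5.43, 4.47e-06), and the bile acid enzyme Cyp7b1 fell in both (-2.28, 4.28e-05, and -1.11, 0.00633).

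**Figure D4:**
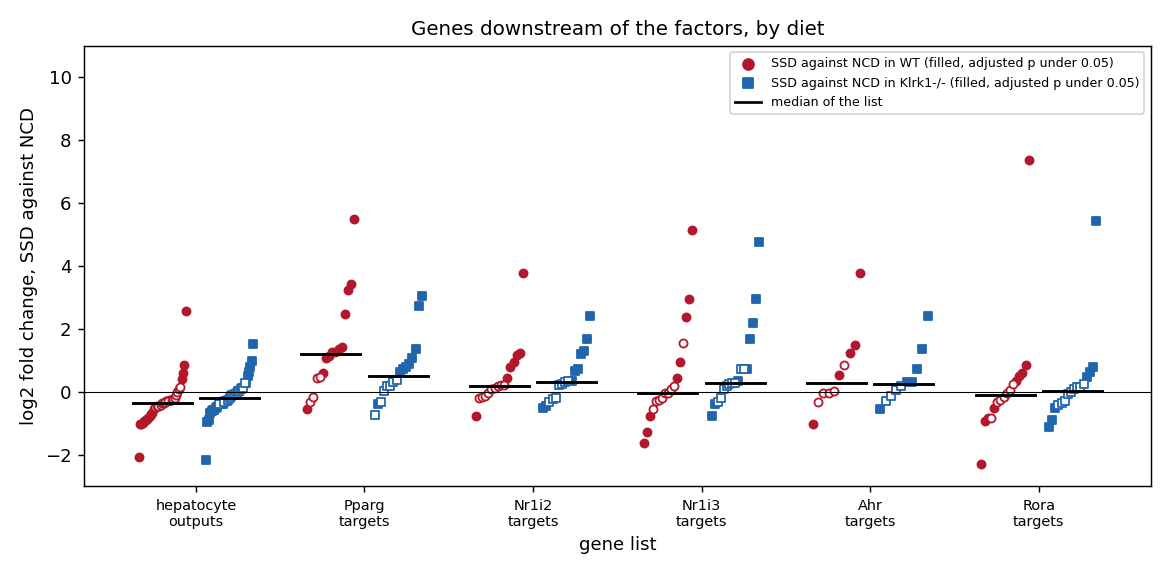
Log2 fold change with SSD (vertical axis) of each tested gene of 6 lists (horizontal axis), in WT (circles) and Klrk1-/- mice (squares), filled where the adjusted p was under 0.05, with the median of each list as a bar. PPARG targets have the highest medians, 1.21 in WT and 0.50 in Klrk1-/- mice. The highest gene of the CAR list is Cyp2b9, whose plotted value depends on the pseudocount, as it was at 0 in NCD-fed WT mice.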

How the data were processed

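RNA was taken from whole liver isolates of 16 mice, and libraries were sequenced as single-end reads; the labels name an mRNA library kit and the methods of the study a total RNA kit. Per the methods of the study, reads were aligned with STAR and counted per gene with FeatureCounts on GENCODE M26 (GRCm39), and fold changes were tested with DESeq2. The deposited table holds normalized counts per gene (a signal that is each read count divided by 1 factor per sample) and the gene length in bases, another column of the authors; how the factors were made is not given in the sources used here. Whole reads were recovered from the deposited normalized counts: 100% of values came out whole within 0.1 read, in libraries of 19892025 to 28936707 reads on genes. No column of normalized counts was left out, and no 2 mice agreed within sampling noise (chi-square per gene 13.46 to 95.59 within groups).

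Values were log2(normalized count + 1), genes averaging 10 or more in the mice being compared were kept, and limma 3.58.1 (R 4.3.3) with its trend option gave fold changes, standard errors and p-values, adjusted by Benjamini-Hochberg over all genes tested. A count test was not the main one because the deposited values are normalized; edgeR 4.0.16 and DESeq2 1.42.0 were run on the recovered reads as alternatives. Each of the 4 comparisons used only its own 2 groups, and the interaction used all 16 mice. Comparisons that share a group are not independent. The scripts were tested on simulated data. Other alternatives were a pseudocount of 10, no minimum or a minimum of 50, equal totals, all groups in 1 model, a fold of at least 1.5, the replicate number as a block, and leaving out each mouse in turn. The block fits used only mice whose replicate number was present in every group compared, and left out the rest. Equal totals and leaving out SSD-fed WT mouse 1 were added for the gene lists after the data were seen. A replicate number names different mice in different groups, and of 20 same-numbered pairs 4 had deviations correlated above 0.1 (range -0.32 to 0.25), so it did not pair them.

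The 9 factors and the gene lists were chosen with earlier results of these data known. Named list genes were the up to 4 with the largest absolute fold change among those called in the comparison discussed. A gene that the rules name but the text does not is not reported here. Correlations, motifs and figures used Python 3.11.15, numpy 2.4.6, pandas 2.3.3 and matplotlib 3.10.9. Upstream windows were read from the GRCm39 genome at GENCODE canonical starts. The markers checked were lists of hepatocyte, cholangiocyte, macrophage, endothelial, stellate, T and NK cell, B cell, neutrophil, adipocyte and cell cycle genes.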

Additional observations from a re-analysis of the deposited data

Results flagged for a closer look

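Of 27 sets of 4 or 5 mice checked for a single mouse far from the rest, 3 groups for each of the 9 factors, 1 stood out, where chance alone marks about 1 in 20. Foxa2 in SSD-fed WT mouse 5 was at 920.1 normalized counts, against 547 in the next highest mouse, a gap of 0.79 of the whole range of the group. The same mouse had the highest Onecut1 (190.2) and the lowest Ahr (627) of the SSD-fed WT mice.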

How the results depend on the processing

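The number of the 9 factors called kept within 1.5 times its value under most settings. Scaling every mouse to the same total moved it from 3 to 6 in both diet comparisons. Beside this, 7035 of 13091 genes passed in WT and 5634 of 12904 in Klrk1-/- mice. The replicate block moved the number of factors called to 5 in Klrk1-/- mice on diet, to 3 for genotype on NCD and to 2 for genotype on SSD. Calls gained with the block were Onecut1 (-1.74, adjusted p = 0.000753 by limma) and Ahr (-0.37, 0.0341) for diet in Klrk1-/- mice. For genotype they were Rxra (-0.31, 0.0468) and Ahr (-0.61, 0.0429) on NCD and Pparg (-0.80, 0.0378) on SSD. The block fits also left out mice, so these calls are not due to the block alone. Left out were NCD-fed Klrk1-/- mouse 4 for diet and for genotype on NCD, and NCD-fed WT mouse 5 for the latter. For genotype on SSD they were SSD-fed WT mice 4 and 5. Without the block, Pparg passed when only SSD-fed WT mouse 5 was left out (-0.72, adjusted p = 0.0476 by limma). DESeq2 gave 3 and 2 for genotype on NCD and SSD, 1 model of all groups gave 2 on SSD, and the fold limit gave 0 on NCD. Leaving out 1 mouse gave 3 to 4 for diet in WT, 2 to 4 for diet in Klrk1-/-, 0 to 3 for genotype on NCD and 0 to 2 for genotype on SSD, and the interaction stayed at 0 throughout. Equal totals moved the median of all genes to 0.34 for diet in WT and to -0.11 for genotype on SSD. With that shift the WT diet sign turned for Hnf4a (0.26), Foxa2 (0.25), Rxra (0.24) and Ahr (0.16). The SSD genotype sign turned for Nr1i2 (-0.010) and Rora (-0.044). Rora turned to 0.0064 for the interaction with the block. With 1 mouse left out, values ran from -0.26 to 0.074 (Foxa2) and -0.14 to 0.0035 (Hnf4a) for diet in WT, -0.0050 to 0.13 (Hnf4a) for diet in Klrk1-/-, -0.087 to 0.0040 (Hnf4a) for genotype on NCD, -0.46 to 0.77 (Onecut1), -0.020 to 0.23 (Rora) and -0.018 to 0.48 (Foxa2) for genotype on SSD, and -0.18 to 0.074 (Rora) and -0.074 to 0.42 (Nr1i3) for the interaction; the cause was not tested. Over single factors, 327 of 351 values under other settings and 393 of 432 with 1 mouse left out kept both direction and call. Over all genes, calls for diet in WT went from 4568 to 7035 with equal totals, 2974 with the block and 2522 with the fold limit. For diet in Klrk1-/- they went from 3790 to 1696 with the fold limit and 2397 without SSD-fed mouse 1. For genotype on NCD they went from 1679 to 744 with the fold limit and as low as 717 with 1 mouse left out. For genotype on SSD they went from 381 to 1220 with DESeq2, 710 with the block, 949 with all groups and 45 to 717 with 1 mouse left out. The interaction went from 115 to 460 with DESeq2, 51 with the block and 37 to 187 with 1 mouse left out. Onecut1 (44 reads at the lowest) and Pparg (78) rest on the fewest reads.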
